A study of Homo sapiens with 2 samples.

Results

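The genes described here are 10 genes of the ATF4 amino acid response, named ATF4, DDIT3, TRIB3, ASNS, SESN2, INHBE, NUPR1, ALDH1L2, PSAT1 and PHGDH, in 2 gastric cancer cell lines, MKN45P and MKN45. They were chosen by name, with earlier results of the same 2 arrays known, and each is read by the probesets whose platform annotation gives that symbol and no other. All 10 were found, with 119 of the 286871 probesets that carry 1 symbol, out of 18923 genes so named. MKN45 is an established human gastric cancer line and the parent, and MKN45P is a highly metastatic line related to it as its derivative; how MKN45P was derived is not given in the sources used here. Both were grown in RPMI medium with 10% serum and added glutamine (0.3 mg/ml), with no treatment. RNA of a cell lysate of each line was hybridised to 1 exon array, which reads a gene at many places through small groups of probes called probesets.

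ATF4 is a transcription factor of the bZIP class. Kinases that sense missing amino acids, unfolded protein, heme deficiency or double-stranded RNA phosphorylate the translation factor eIF2alpha; this lowers protein synthesis in general but raises translation of the ATF4 message, so that ATF4 is controlled to a large part after transcription. With C/EBP family partners ATF4 binds composite C/EBP-ATF elements and raises genes for amino acid synthesis and uptake, for the folate cycle of mitochondria, and for feedback and cell death.

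MKN45P had higher signal than MKN45 for the stress effectors SESN2, DDIT3, NUPR1 and INHBE and for the folate enzyme ALDH1L2. For ATF4 itself and TRIB3 the median over probesets was near 0. At each probeset the value in MKN45 was subtracted from that in MKN45P, and the median of these over a gene's probesets is called its difference; it is in log2, so that 1 is 2-fold. It was 2.94 for ALDH1L2 and for NUPR1, 2.83 for INHBE, 1.56 for SESN2 and 1.27 for DDIT3, then 0.66 for ASNS, 0.24 for PHGDH, 0.02 for ATF4 and 0.01 for TRIB3. PSAT1, at 1.63, has 3 probesets and so falls short of the 4 asked of a measured gene. A measured gene must also have a median level of at least 1.92 (mean of both arrays), which is the median over every probeset of the arrays. Of the 9 measured genes 5 were at least 2-fold higher and 0 were 2-fold lower, where 4.58% of 13130 measured genes were 2-fold higher and 1.2% 2-fold lower. The genes were picked with this contrast known, so nothing is read from their count. There was 1 array per line: no test between the lines was possible, no p-value is given, and the interquartile ranges printed are over the probesets of 1 gene on these arrays. In a bulk lysate a change in all cells and a change in a share of them cannot be told apart.

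A well-studied pair of elements in the ASNS promoter shows how the response is read out at DNA, and 3 promoters are given for that reason. Each is the 250 bases before the start of the gene, 5′ to 3′ on the gene's strand, from RefSeq on GRCh38.p14. ASNS lies at chr7:97872409-97872658 on the minus strand, CHAC1, a glutathione-degrading enzyme gene of the same response, at chr15:40953221-40953470 on the plus strand, and SESN2 at chr1:28259268-28259517 on the plus strand. Capitals mark TGATGNAA, the core of the C/EBP-ATF element, and GTTACA, the second nutrient-sensing element of ASNS, each on either strand.
ASNS: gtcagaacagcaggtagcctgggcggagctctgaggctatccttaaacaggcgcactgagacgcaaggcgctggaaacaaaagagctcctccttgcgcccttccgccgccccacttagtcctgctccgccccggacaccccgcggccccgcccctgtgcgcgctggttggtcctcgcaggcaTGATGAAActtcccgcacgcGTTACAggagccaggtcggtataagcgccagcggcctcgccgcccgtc
CHAC1: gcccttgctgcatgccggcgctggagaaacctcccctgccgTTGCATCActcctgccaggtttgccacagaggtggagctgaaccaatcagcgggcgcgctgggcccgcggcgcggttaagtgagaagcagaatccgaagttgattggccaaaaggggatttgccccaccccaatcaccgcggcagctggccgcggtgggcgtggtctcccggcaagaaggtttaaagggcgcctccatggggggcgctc
SESN2: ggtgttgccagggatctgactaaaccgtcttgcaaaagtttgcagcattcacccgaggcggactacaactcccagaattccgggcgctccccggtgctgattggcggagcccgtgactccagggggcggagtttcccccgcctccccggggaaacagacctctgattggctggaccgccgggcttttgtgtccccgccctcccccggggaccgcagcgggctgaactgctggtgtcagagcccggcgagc

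In ASNS the core reads TGATGAAA on the gene's strand, with its first base 68 bases before the start, and GTTACA begins 48 bases before it. In CHAC1 the core is on the opposite strand, as TTGCATCA, and begins 209 bases before the start. The SESN2 stretch holds neither motif. Promoter windows of 300 bases (250 before to 50 after a start; 35116 windows, several of them overlapping at 1 gene) were searched on both strands for each motif; 3.62% held TGATGNAA, 6.66% held GTTACA and 0.498% held both. Of the 10 genes 7 had a window, all but INHBE, NUPR1 and ALDH1L2, and ASNS alone of the 7 held TGATGNAA. TRIB3 held GTTACA without the core. Among all genes with a window 4.46% held TGATGNAA. A gene counted as holding it if any of its windows did, and these 27305 genes had 35116 windows. Of the 251 measured genes matched by array symbol to a window holding TGATGNAA, 6.77% were at least 2-fold higher, with a median difference of 0.05. That match leaves out genes whose RefSeq symbol differs from that of the array. Beside these stand 4.58% and 0.03 for all measured genes, with or without a window. A match describes the letters in the window and no more.

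The 3 genes with the largest differences were near the low end of the scale in MKN45 and clearly above it in MKN45P. ALDH1L2, a mitochondrial enzyme that oxidises 10-formyltetrahydrofolate and yields NADPH, had a median level of 2.38 in MKN45 and 5.69 in MKN45P. All 23 of its probesets were higher in MKN45P, with a difference of 2.94 (interquartile range 1.78 to 3.63), 7.67-fold. The 75th percentile of all probesets was 2.77; in ALDH1L2 10 of 23 probesets reached it in MKN45 and 21 in MKN45P. NUPR1, a small chromatin-associated stress protein, had a median level of 2.45 in MKN45 and of 6.24 in MKN45P.

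NUPR1 is read by 6 probesets that fall into separate sets. In 4 of them the signal went from values between 1.94 and 3.70 in MKN45 to values between 6.19 and 7.75 in MKN45P, with differences of 2.48 to 5.21. The other two stayed under 2.77 in both arrays, at 1.70 and 1.83 for one and 2.35 and 1.85 for the other. The NUPR1 difference of 2.94 (0.72 to 4.11) lies between those sets. INHBE encodes the activin E chain, a secreted ligand of the TGF-beta superfamily made mostly by liver. Its 6 probesets lay between 1.88 and 3.30 in MKN45 and between 3.13 and 7.16 in MKN45P, and each was at least 2-fold higher in MKN45P. The INHBE difference was 2.83 (2.30 to 3.38), 7.11-fold. ALDH1L2, NUPR1 and INHBE stood 29th, 30th and 34th from the top of the 13130 measured genes. Values near the low end of the scale may be compressed, so these differences may be smaller than those in RNA, which was not tested. Their order is not determined.

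**Figure D1:**
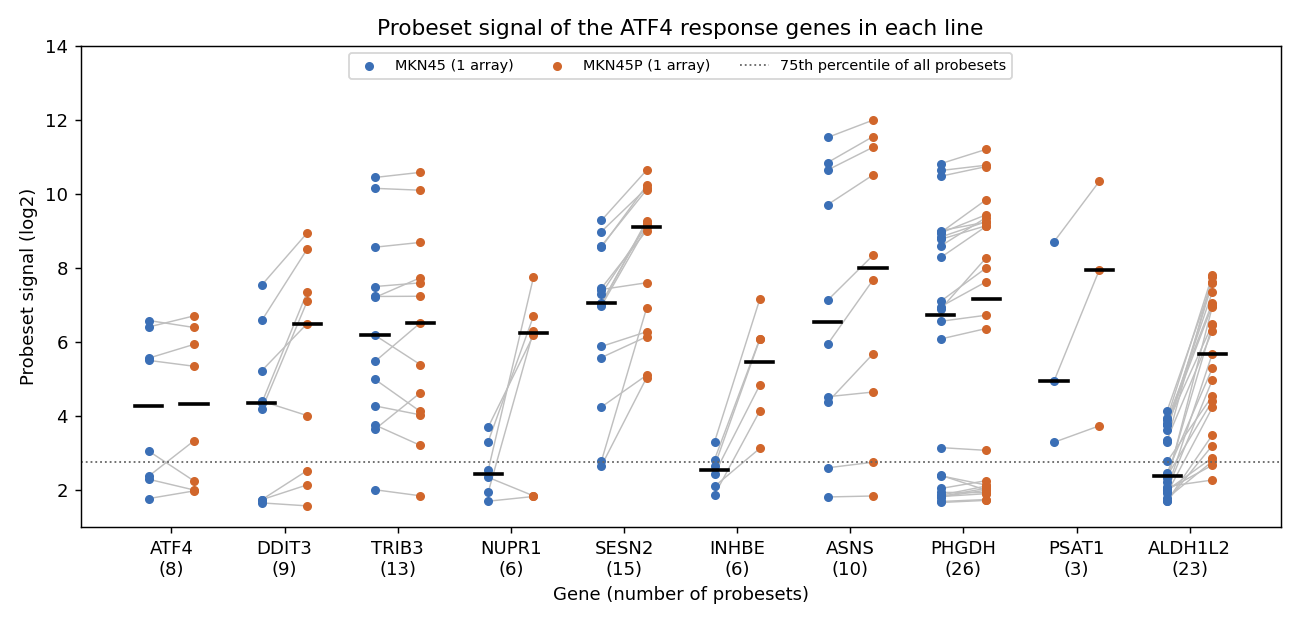
Signal of each probeset (log2) of the 10 genes in MKN45 (blue) and MKN45P (orange), joined by a line per probeset, with the median of each array as a black bar and the 75th percentile of all probesets, 2.77, as a dotted line. The MKN45 bars of NUPR1, INHBE and ALDH1L2 lie under the dotted line and their MKN45P bars above 5.4.

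SESN2 and DDIT3 had signal in both lines and more of it in MKN45P. SESN2 is a leucine-binding inhibitor of the growth kinase mTORC1. Its median level was 7.05 in MKN45 and 9.11 in MKN45P, and all 15 probesets were higher in MKN45P, by 0.18 to 4.14. The SESN2 difference was 1.56 (1.02 to 2.15), 2.95-fold, and 11 of the 15 probesets passed 2-fold. DDIT3, also called CHOP, is the bZIP factor that acts with ATF4 in prolonged stress and favours cell death.

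For DDIT3 the median level was 4.36 in MKN45 and 6.50 in MKN45P, and 7 of 9 probesets were higher in MKN45P. Its brightest probeset read 7.55 in MKN45 and 8.95 in MKN45P, and the probeset with the largest gap 4.36 and 7.35. Of the 6 DDIT3 probesets with signal, meaning at or above 2.77 in at least 1 array, 5 were at least 2-fold higher and 1 was lower, by -0.39. A probeset can enter such a set through 1 array alone, so values over it are not separate support. The DDIT3 difference was 1.27 (0.40 to 1.92) over all probesets and 1.66 over those with signal.

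ATF4 and TRIB3 did not follow the other genes. The median of the 8 ATF4 probesets was 4.28 in MKN45 and 4.34 in MKN45P, with 4 higher and 4 lower in MKN45P, and a difference of 0.02 (-0.21 to 0.32). The brightest ATF4 probesets read 6.58 and 6.41 in MKN45 and 6.39 and 6.71 in MKN45P. TRIB3 encodes a pseudokinase that binds ATF4 and DDIT3 and damps their activity. Its 13 probesets had a median of 6.18 in MKN45 and of 6.52 in MKN45P and a difference of 0.01 (-0.24 to 0.14).

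The signal of TRIB3 was high in both lines: its 2 brightest probesets read 10.45 and 10.15 in MKN45 and 10.58 and 10.10 in MKN45P. The TRIB3 probesets spread from -0.87 to 1.04, with 7 higher and 6 lower in MKN45P, and 1 of them passed 2-fold. These arrays measure RNA, so translation of ATF4, on which its protein depends, was not analysed here. RefSeq names 4 pseudogenes after ATF4, 5 after ASNS and 4 after PSAT1, and RNA or probes shared with them make those 3 values uncertain.

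**Figure D2:**
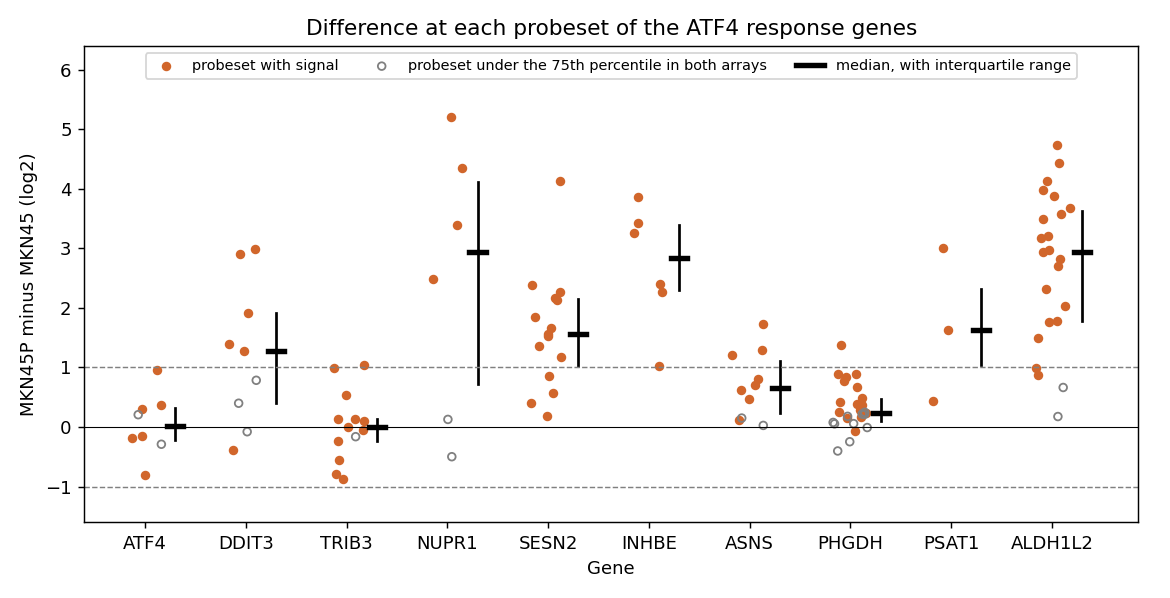
Difference of each probeset, MKN45P minus MKN45 (log2), for the 10 genes, with the median and interquartile range in black, 2-fold as dashed lines, and open circles for probesets under 2.77 in both arrays. All probesets of SESN2, INHBE, ASNS, PSAT1 and ALDH1L2 are above 0, while those of ATF4 and TRIB3 lie on both sides of it.

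The enzymes of amino acid synthesis had smaller or less certain differences. ASNS, which makes asparagine from aspartate and glutamine, had a median level of 6.54 in MKN45 and of 8.01 in MKN45P. All 10 ASNS probesets were higher in MKN45P, by 0.03 to 1.73, and the difference was 0.66 (0.23 to 1.11), short of 2-fold. The gap between the ASNS median levels was larger, 1.47, which passes 2-fold: it rests on the 2 middle probesets, which differed by 1.73 and 1.21, and the call depends on this choice. The brightest ASNS probeset read 11.53 in MKN45 and 12.00 in MKN45P, near the top of the scale.

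PHGDH and PSAT1 carry out the opening steps of serine synthesis from 3-phosphoglycerate, an oxidation and a transamination. PHGDH had a median level of 6.73 in MKN45 and of 7.18 in MKN45P and a difference of 0.24 (0.09 to 0.47), with 22 of 26 probesets higher in MKN45P. Only 1 of the 16 PHGDH probesets with signal passed 2-fold. The 3 PSAT1 probesets read 3.29, 4.94 and 8.71 in MKN45 and 3.74, 7.94 and 10.34 in MKN45P. Each PSAT1 probeset was higher in MKN45P, and the difference of 1.63 (1.04 to 2.32) rests on these 3 alone; the gap between the PSAT1 median levels was 3.001.

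PSPH, the phosphatase that completes the serine pathway, was at 0.61 (0.10 to 1.10) with all 13 probesets higher in MKN45P. The enzymes that carry the one-carbon unit of serine into folate were then set out by compartment, a grouping made with their values known. In mitochondria SHMT2 was at 0.54 (0.39 to 0.81), MTHFD2 at 0.83 (0.36 to 1.27), MTHFD1L at 0.19 (-0.08 to 0.56) and ALDH1L2 at 2.94. In the cytosol SHMT1 was at -0.23 (-0.46 to -0.03), MTHFD1 at -0.73 (-0.77 to -0.47) and ALDH1L1, the cytosolic relative of ALDH1L2, at -0.04 (-0.28 to 0.07). MTHFD1 was lower in MKN45P at all 14 probesets and read 7.84 in MKN45 and 7.26 in MKN45P. ALDH1L1 was near the low end in both lines, at 2.11 and 2.05, and MTHFD2L was not measured. MTHFD2 passed 2-fold by median levels (1.45) and over probesets with signal (1.05). By the median of probeset differences ALDH1L2 was the single measured enzyme of these 10 past 2-fold.

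**Figure D3:**
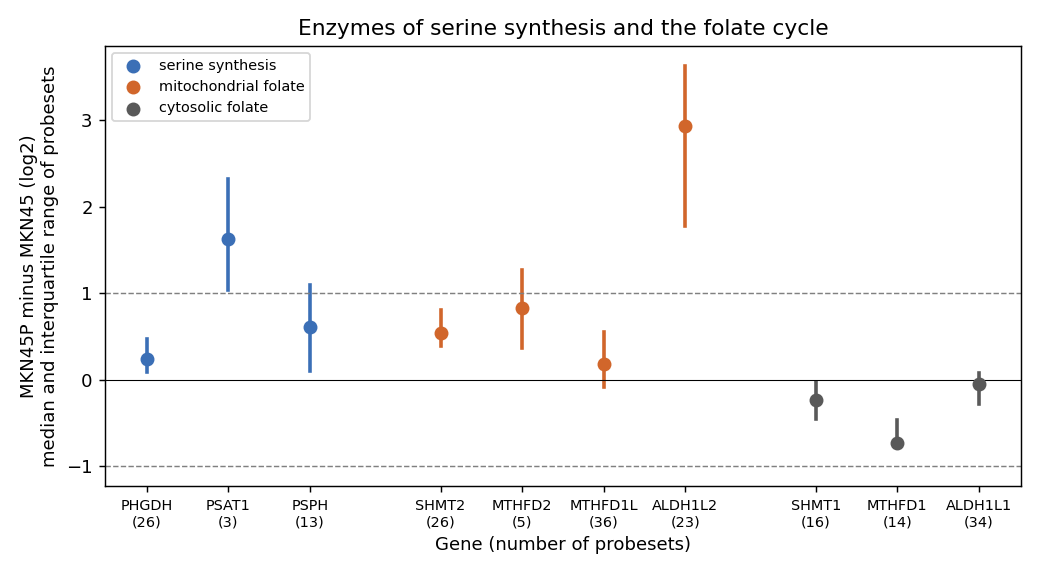
Difference of serine synthesis and folate cycle enzymes, MKN45P minus MKN45 (log2), as the median over probesets (point) with their interquartile range (line) and the number of probesets under each name. Points of serine synthesis and mitochondrial enzymes lie above 0 and those of cytosolic enzymes below it, down to -0.73 for MTHFD1; PSAT1 has 3 probesets.

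Among the genes upstream of ATF4, 3 of 17 were 2-fold higher or more in MKN45P and 0 were 2-fold lower, with a median of 0.32 beside 0.03 for all measured genes. Of all measured genes 4.58% were 2-fold higher and 1.2% 2-fold lower, the shares that stand beside this and the list counts that follow. EIF2AK2, the kinase PKR that senses double-stranded RNA and is itself induced by interferon, was higher by 2.85 (1.32 to 3.22 over 25 probesets). It read 2.68 in MKN45 and 5.41 in MKN45P. The other eIF2alpha kinases had smaller differences: EIF2AK3, or PERK, of the endoplasmic reticulum was at 0.95 (0.59 to 1.46), the heme-regulated EIF2AK1 at 0.42 (0.13 to 0.67) and EIF2AK4, or GCN2, which senses uncharged tRNA, at 0.03 (-0.19 to 0.22). EIF2AK3 passed 2-fold with loess (1.02), by median levels (1.396) and over probesets with signal (1.34). PPP1R15A, or GADD34, the stress-induced subunit that brings a phosphatase to eIF2alpha, was at 1.14 (0.50 to 2.28) with all 10 probesets higher. DNAJC3, a chaperone that inhibits eIF2alpha kinases, was at 1.09 (0.84 to 1.67) with all 14 higher, and 0.97, short of 2-fold, with quantile normalization. EIF2B5, a subunit of the eIF2 exchange factor, was nearest to 0, at -0.01, and the lowest was GCN1, which helps activate GCN2, at -0.56 (-0.70 to -0.38), with 5 of 61 probesets higher in MKN45P.

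Of 12 measured bZIP partners and relatives of ATF4, 2 were 2-fold higher and 0 were 2-fold lower, with a median of 0.28. ATF5, the nearest relative of ATF4, was at 1.496, with a range over its 9 probesets (-0.37 to 2.92) that crossed 0. NFE2L1, a factor that raises proteasome genes, was at 1.06 (0.98 to 1.59 over 19 probesets), but at 0.92 with loess. CEBPG, a dimer partner of ATF4, was at 0.02, CEBPB at 0.88 (0.59 to 1.34) and ATF3, a stress-induced repressor, at 0.61 (0.13 to 1.30). Both passed 2-fold by median levels, at 1.34 and 1.33, and ATF3 also over probesets with signal, at 1.16. JUN, an AP-1 subunit, was at -0.99 (-1.26 to -0.62), with 1 of 15 probesets higher in MKN45P, and CEBPD, another C/EBP factor, at -0.71. JUN was past 2-fold lower with quantile normalization (-1.16), loess (-1.05), by median levels (-1.83) and over probesets with signal (-1.03).

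The other stress targets of ATF4 had 5 of 21 genes at least 2-fold higher in MKN45P, 0 2-fold lower and a median of 0.51. Of the 21 genes 20 were above 0, as were 54.9% of all measured genes and 62.8% of those with a level of 2.77 or more. WIPI1, an autophagy protein, was at 2.67 (1.71 to 3.19), with all 16 probesets higher, from 2.06 in MKN45 to 4.87 in MKN45P. VLDLR, a lipoprotein receptor, was at 1.402, HERPUD1, which acts in disposal of unfolded protein, at 1.28, CLGN, a chaperone of the endoplasmic reticulum, at 1.13, and DDIT4, an inhibitor of mTORC1, at 1.07, which became 0.99 with quantile normalization and 0.95 with loess. CLGN was near the low end in MKN45, at 1.83, and its 22 probesets had a wide interquartile range, 0.33 to 2.54; over its 12 probesets with signal, none of which reached 2.77 in MKN45, it was at 2.42, and it was not measured with the level filter at 2.77. GDF15, a secreted stress cytokine, was bright in both lines (9.73 and 9.74) and differed by -0.02. CHAC1, whose promoter is given above, was at 0.80 with 4 of 6 probesets higher and a range of -0.01 to 1.42.

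All 10 measured amino acid transporters of the response were above 0, with a median of 0.46, and 1 was past 2-fold. Beside this, 54.9% of all measured genes and 62.8% of those with a level of 2.77 or more were above 0. SLC7A3, also in the list, was at -0.07 but lay under the level filter and was not measured. The gene past 2-fold was SLC1A4, a carrier of alanine, serine and cysteine, at 1.03 (0.76 to 1.42), just over the threshold, with all 20 probesets higher in MKN45P. With the arrays quantile normalized it was at 0.95. The nearest to 0 was SLC38A1, a glutamine carrier, at 0.30. Of the 9 transporters with a promoter window 5 held TGATGNAA, beside 4.46% of all genes with a window. The 5 were SLC3A2, SLC38A1, SLC1A5, SLC7A1 and SLC1A4. The 9 transporters had 16 windows, more per gene than all genes have, which leaves more room for a match.

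The other enzymes of amino acid synthesis had a median of -0.02 over 14 measured genes, with 2 past 2-fold upward and 0 downward. GOT1, the cytosolic aspartate aminotransferase, was at 1.79 (1.32 to 2.40), with 5.60 in MKN45 and 8.60 in MKN45P as its levels and 14 of 15 probesets higher. CTH, which makes cysteine from cystathionine, was at 1.49 (1.32 to 1.57), and all 13 of its probesets were higher, from a median level of 7.40 to 8.84. GPT2, an alanine aminotransferase, was at -0.02.

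Among 19 measured cytosolic aminoacyl-tRNA synthetases, many of them targets of ATF4, 1 was 2-fold higher and 1 was 2-fold lower, with a median of 0.17. WARS1, the tryptophan enzyme, which is also an interferon-induced gene, was at 2.93 (2.12 to 3.45), from 6.70 to 10.18. QARS1, the glutamine enzyme, was lower in MKN45P at all 27 probesets, at -1.15 (-1.43 to -0.96), and FARSA was at -0.01. Of the 16 synthetases with a promoter window 7 held TGATGNAA, beside 4.46% of all genes with a window. In the lists apart from the transporters and the synthetases the shares were lower. TGATGNAA was held by 3 of 17 other stress targets, 3 of 12 amino acid synthesis genes (24 windows) and 3 of 11 bZIP genes (22 windows). Among genes upstream of ATF4 1 of 15 held it, among the other unfolded protein response branches 0 of 14, and among relatives of the 10 genes 0 of 9.

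The branches of the unfolded protein response that do not run through eIF2alpha had a median of 0.70 over 14 genes. All 14 were above 0, beside 54.9% of all measured genes and 62.8% of those with a level of 2.77 or more. Of the 14 genes 5 were at least 2-fold higher and 0 were 2-fold lower, beside 4.58% and 1.2% of all measured genes. HSPA5, the endoplasmic reticulum chaperone BiP, was at 1.76, the sensors ATF6 and ERN1 at 1.55 and 1.24, SEL1L, of the disposal machinery, at 1.19 and the co-chaperone DNAJB9 at 1.10. CRELD2, a secreted stress protein, was nearest to 0, at 0.21. All of these lists were drawn up with earlier results of the arrays known, and over the 8081 measured genes with a level of 2.77 or more the median was 0.12 and 7.25% were 2-fold higher.

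**Figure D4:**
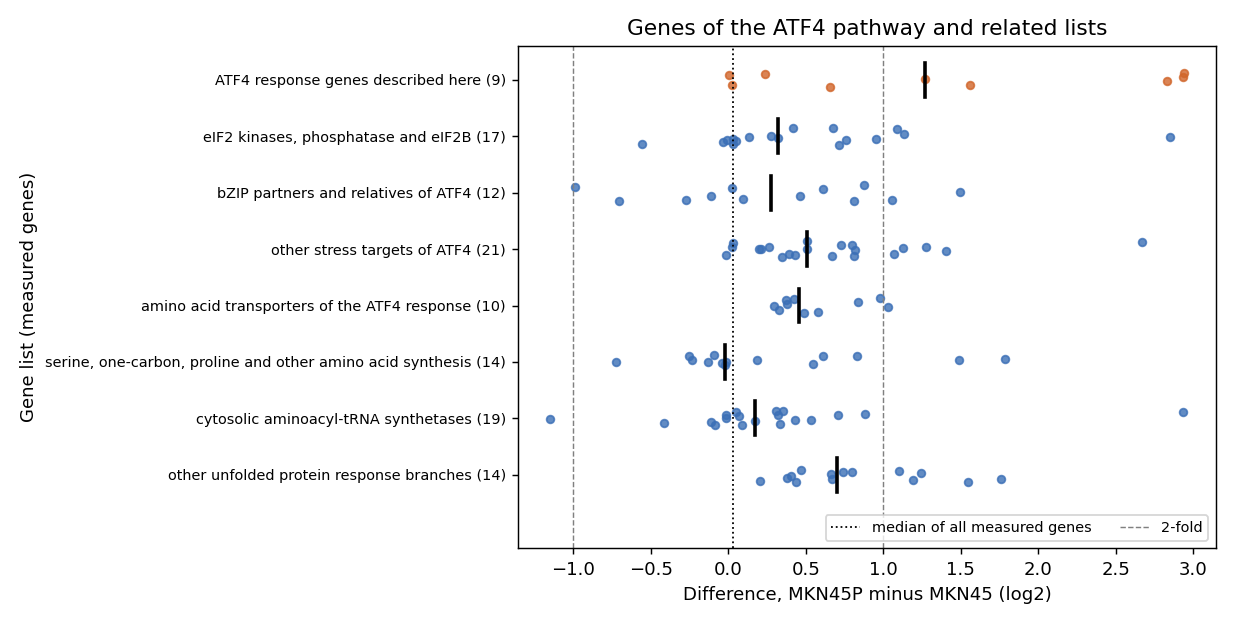
Difference of each measured gene, MKN45P minus MKN45 (log2), by list, with the list's median as a black bar, the median of all measured genes (0.03) dotted and 2-fold dashed. Among the lists plotted the medians run from -0.02 for amino acid synthesis to 1.27 for the 9 measured genes of the ATF4 response.

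Close relatives of the 10 genes were compared where they were measured. TRIB1 was at 0.98 (0.93 to 1.08) and TRIB2 at 0.62 (0.16 to 0.78), both above TRIB3. SESN1 and SESN3 lay under 1.92 in median level and were not measured. INHBC, the neighbour and nearest relative of INHBE, was at -0.02 with 2.0025 in MKN45 and 2.06 in MKN45P as its levels, INHA was at -0.02 and INHBB at -0.40 (-0.55 to 0.31). The direction of INHBB turns with the summary, since its median level was 2.73 in MKN45 and 3.21 in MKN45P. No measured relative of INHBE or ALDH1L2 in this list was past 2-fold.

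**Figure D5:**
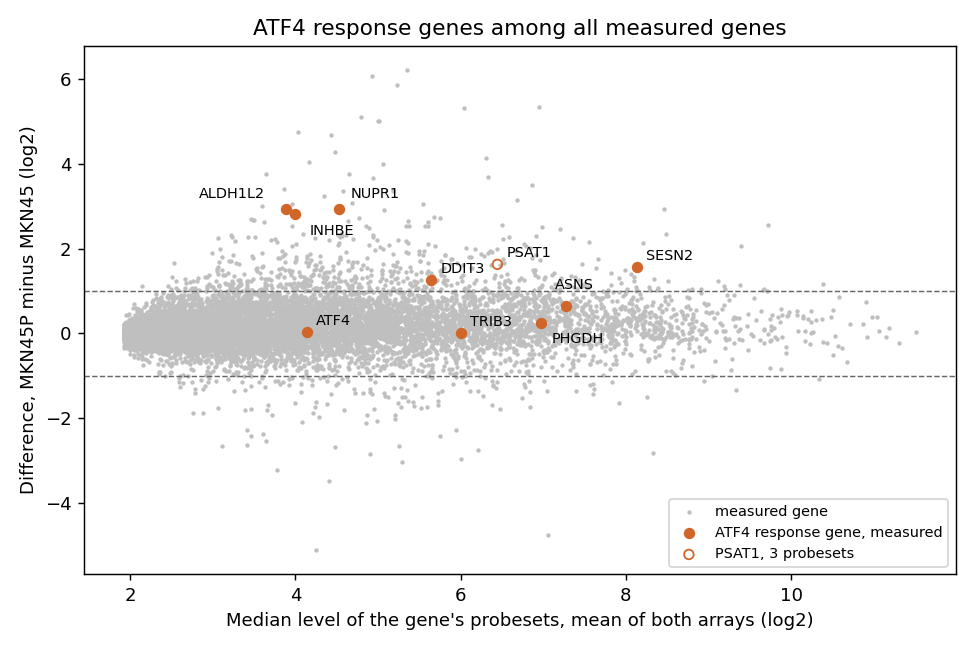
Difference of each of 13130 measured genes, MKN45P minus MKN45 (log2), against its median level (log2, mean of both arrays), with the ATF4 response genes in orange, PSAT1 as an open circle and 2-fold dashed. ALDH1L2, NUPR1 and INHBE lie near 3 at low level, SESN2 at 1.56 at high level, and ATF4 and TRIB3 at 0.

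The epithelial label of the cells was checked on the same arrays. CDH1 read 10.26 in MKN45 and 10.74 in MKN45P and EPCAM 6.39 and 7.43. Of the epithelial keratins KRT18 read 5.63 and 5.78, KRT19, with 2 probesets, 6.36 and 5.60, and KRT8, 3.31 and 3.13; their differences were -0.08, -0.76 and -0.21. The leukocyte marker PTPRC (1.66 and 1.65), the T cell marker CD3E (1.79 and 1.84), the monocyte marker CD14 (1.77 and 1.81), the endothelial marker PECAM1 (1.75 and 1.74) and the fibroblast marker DCN (1.82 and 1.70) lay under the median of all probesets in both lines. The other 5 markers lay above that median: VWF of endothelium (2.12 and 2.05), COL1A2 and COL1A1 of fibroblasts (2.04 and 2.01, 2.62 and 2.86), LYZ of myeloid cells (2.69 and 2.29) and MSLN of mesothelium (3.996 and 4.502). None of these 5 was past 2-fold, and their part in the results was not tested.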

How the data were processed

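The authors deposited log2 values of 877986 probesets for each array. That scale was inferred from the range: as a natural logarithm the highest, 13.48, would exceed a 16-bit scanner. Partek and hg18 are named by the submitters' processing notes; how background was corrected, probes were summarised and arrays were normalized is not stated in the sources used here. Medians were 1.93 in MKN45 and 1.91 in MKN45P, and values were used as deposited.

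Symbols came from the GEO platform annotation; 3137 probesets with several symbols and 587978 unnamed ones were left out. Of 149 list entries 145 were named there, older symbols being matched through RefSeq. Gene differences, the minimum of 4 probesets and the level filter are as in the report. Depth has no meaning for arrays; their number, 1 per line, limits the precision. The genes and lists were chosen with earlier results of these data known. Named were all 10 genes, list genes past 2-fold, the gene nearest to 0 per list, measured paralogs and neighbours past 2-fold. The eIF2alpha kinases, folate enzymes, PSPH, CEBPB, CEBPD, ATF3, JUN, GCN1, CHAC1, SLC7A3 and the neighbours PIP4K2C, R3HDM2 and MBD6 were added with values known. The 10 alternatives covered scaling, summary, probesets and filters. Python 3.11.15, numpy 2.4.6, pandas 2.3.3 and statsmodels 0.14.6 were used. The gene summary was run on simulated data with the same shift added to every probeset of a gene. Genes in which some probesets do not shift, as in NUPR1, were not simulated.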

Additional observations from a re-analysis of the deposited data

How the results depend on the processing

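Of 100 values of the 10 genes' differences under 10 alternatives, 98 moved by less than the standard deviation over the gene's probesets, and no difference past 2-fold changed sign. The exceptions came from the difference of median levels, which gave 1.47 for ASNS and 3.001 for PSAT1. Alternatives that changed only the level filter or the number of probesets required leave a gene's difference as it was. Their values are among the 98 and could not move, so that number overstates how far the differences were tested. The count of the 10 genes at least 2-fold higher was 5 of 9, beside 4.58% of all measured genes, and ran from 2 to 6. With at least 10 probesets required it was 2 of 5 genes, because INHBE, NUPR1 and DDIT3 have fewer, beside 4.83%. With 1 probeset required it was 6 of 10, with PSAT1, beside 4.46%. By the difference of median levels it was 6 of 9, with ASNS, beside 9.62%. None was 2-fold lower under any of these alternatives. ATF4 ran from -0.06 to 0.07 and TRIB3 from -0.12 to 0.34. Quantile normalization lowered the number of measured genes 2-fold higher from 602 to 524 and raised the number lower from 157 to 193; the difference of median levels gave 1263 and 305, and probesets with signal 1208 and 297.

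Counts of small lists moved with the setting. Under the difference of median levels the numbers 2-fold higher were 4 amino acid transporters, 5 bZIP genes, 2 tRNA synthetases, 5 genes upstream of ATF4 and 9 other stress targets. In that setting 9.62% of all measured genes were 2-fold higher, beside 4.58% by the median of probeset differences. Transporters numbered 0 with quantile normalization and 2 with probesets with signal. Of all measured genes 3.99% and 10.7% were 2-fold higher in these 2 settings. The bZIP genes 2-fold higher numbered 1 with loess and 1 with at least 10 probesets, and those 2-fold lower numbered 1 (JUN) with quantile normalization, loess, the difference of median levels and probesets with signal. With at least 10 probesets 3 genes of the other unfolded protein response branches and 0 paralogs were 2-fold higher, as fewer genes were tested. The median of the paralogs was 0.80 with the level filter at the 75th percentile, over 4 genes. The cause of the other shifts was not tested. No paired analysis was possible because each line has 1 array. Values near the low end may be compressed, and no variation between cultures could be measured.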

Other observations

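The genes next to the 10 along the chromosomes were read on the same arrays. For each gene the 5 nearest measured protein-coding genes on each side were taken by RefSeq gene order. The median difference of the 10 neighbours ran from -0.09 around ASNS to 0.38 around INHBE. Around SESN2 it was 0.04, around NUPR1 0.12 and around ALDH1L2 0.16, and no neighbour of SESN2 or NUPR1 was past 2-fold. INHBE and DDIT3 lie among each other's neighbours on chromosome 12, together with DCTN2, a dynactin subunit, which was at 1.08 (6.11 in MKN45 and 6.93 in MKN45P). Short of 2-fold in the same stretch were PIP4K2C at 0.998 (5.71 and 7.51), R3HDM2 at 0.96 (6.10 and 7.33) and MBD6 at 0.51. The lowest neighbour of either gene was INHBC, at -0.02. A cause shared by this stretch was not tested. Beside ALDH1L2 on chromosome 12 the thioredoxin reductase gene TXNRD1 was at 1.55 and TCP11L2 at 2.09. Beside TRIB3 on chromosome 20, RBCK1, a subunit of the linear ubiquitin ligase, was at 2.46 (5.11 in MKN45 and 8.40 in MKN45P), while TRIB3 itself was at 0.01. SEC22B, a vesicle fusion protein gene beside PHGDH, was at 1.26, and TLE1, a co-repressor gene beside PSAT1, at 1.07. Counted once each and without the 10 genes themselves, 6 of 92 neighbours (6.52%) were 2-fold higher and 0 were 2-fold lower, beside 4.58% and 1.2% of all measured genes.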
